A study of Mus musculus with 33 samples.

Results

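The genes described here are 10 members of the BCL2 family, which decides at the mitochondrial membrane whether a cell lives or dies, out of 55487 genes in the table of read counts. They were taken by symbol, and each symbol was found on 1 row. Of them, 3 are pro-survival (Bcl2, Bcl2l1 and Mcl1) and 7 are pro-death (Bax, Bak1, Bid, Bad, Bbc3, Pmaip1 and Bcl2l11), and all 10 had enough reads to be tested. RNAseq was carried out on 33 mice with 1 library each. All mice carried MMTV-Cre, which drives Cre recombinase from a viral promoter active in mammary epithelium, and the mTmG reporter, which Cre switches from a red to a green membrane protein. PTHrP WT mice were Pthrpwt/wt, and PTHrP KO mice were Pthrpflox/flox, so that Cre removes a part of Pthlh, the gene of parathyroid hormone-related protein. Tumor mice also carried MMTV-PyMT, a viral oncogene driven by the same kind of promoter, and tumor-free mice gave normal glands. The background was FVB. PTHrP WT tumors were taken at weeks 6, 8 and 10 (3 mice each) and 12 (1 mouse), and PTHrP KO tumors at weeks 8, 10 and 12 (3 mice each). Glands came from 2 mice per age, at weeks 6, 8, 10 and 12 in PTHrP WT and at weeks 8, 10 and 12 in PTHrP KO. The study read weeks 6, 8 and 10 of WT tumors and weeks 8, 10 and 12 of KO tumors as hyperplasia, adenoma and carcinoma. Digested cells were cultured for a short time before the GFP+ cells were sorted, so all values are those of cultured epithelial cells and not of intact tissue.

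BAX and BAK form the pores in the outer mitochondrial membrane that release cytochrome c and start the caspase cascade. BCL2, BCL-XL (the product of Bcl2l1) and MCL1 hold BAX and BAK in check. The BH3-only proteins tip the balance: BIM (Bcl2l11), PUMA (Bbc3) and BID bind all pro-survival members, BAD binds BCL2 and BCL-XL, and NOXA (Pmaip1) binds mainly MCL1. In the mammary gland this family governs the hollowing of ducts and the loss of milk-secreting cells after weaning. Much of its control lies in protein stability, cleavage and phosphorylation, which RNA levels do not measure.

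The starts of the 3 genes that were called in tumors are shown as a reference for where their transcription begins. The sequences are from RefSeq (GRCm38.p6) and run 5′ to 3′ on the strand of the gene, from 250 bases before to 50 bases after a start. Bcl2 lies on chromosome 1 (chr1:106714241-106714540, minus strand), Bcl2l1 on chromosome 2 (chr2:152831679-152831978, minus strand, the most upstream of its 3 starts there) and Bbc3 on chromosome 7 (chr7:16309333-16309632, plus strand, the most upstream of its 3 starts there). In Gencode M21 the Bbc3 gene begins further upstream, at base 16308393, and no window of that start is shown. Capitals mark every match on either strand to GGGCGG (the GC box), TGACG (the core of cAMP response elements), CACGTG (the E-box), GTAAACA (a forkhead site) or TTCNNNGAA (a STAT site).
Bcl2: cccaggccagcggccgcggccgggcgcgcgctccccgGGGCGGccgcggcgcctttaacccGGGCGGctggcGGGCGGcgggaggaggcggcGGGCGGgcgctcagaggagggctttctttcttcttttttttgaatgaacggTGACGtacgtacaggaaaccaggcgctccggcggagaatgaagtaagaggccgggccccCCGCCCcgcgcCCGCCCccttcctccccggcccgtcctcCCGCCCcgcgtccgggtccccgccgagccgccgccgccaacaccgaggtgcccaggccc
Bcl2l1: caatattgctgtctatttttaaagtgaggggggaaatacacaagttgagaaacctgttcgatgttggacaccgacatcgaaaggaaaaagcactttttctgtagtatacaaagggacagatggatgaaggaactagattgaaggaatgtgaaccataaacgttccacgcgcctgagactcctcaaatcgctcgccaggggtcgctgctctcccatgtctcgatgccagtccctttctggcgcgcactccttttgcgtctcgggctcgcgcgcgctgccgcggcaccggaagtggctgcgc
Bbc3: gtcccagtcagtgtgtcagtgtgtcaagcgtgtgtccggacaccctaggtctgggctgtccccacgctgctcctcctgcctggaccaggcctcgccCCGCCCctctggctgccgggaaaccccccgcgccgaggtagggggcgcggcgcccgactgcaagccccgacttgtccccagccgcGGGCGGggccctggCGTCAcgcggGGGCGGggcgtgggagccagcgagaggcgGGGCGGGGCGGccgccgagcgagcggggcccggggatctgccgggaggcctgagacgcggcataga
The Bcl2 window held 7 GC boxes and 1 TGACG, and the Bbc3 window held 5 GC boxes, of which a pair shares 1 base, and 1 TGACG. The Bcl2l1 window held no match to any of the 5 motifs, which says only that these letters are not in it. Of all 32851 promoter windows in the table, 35.7% held GGGCGG, 20.8% TGACG, 8.30% TTCNNNGAA, 7.15% CACGTG and 3.65% GTAAACA. GC content was 76% in both the Bcl2 and the Bbc3 window and 52.3% in that of Bcl2l1, and its median over all windows was 52.7%. Windows were present for 9 of the 10 members, and Pmaip1 was not among them. GC boxes lay in 10 of the 15 windows of these members. By gene, 7 of the 9 had at least 1 window with a GC box, and that share over all genes was not counted.

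Counted reads per library ranged from 28419983 to 130981596 (median 46351179). The Pymt row held 0 reads in all 14 glands and between 107 and 7489 reads in the 19 tumors, and the reporter's GFP row held reads in every library. Pthlh counts of the whole gene overlapped between genotypes (1.35 to 2.29 CPM in KO tumors, 1.46 to 6.67 CPM in WT tumors), and since they include exons outside the deleted part they do not check the knockout. In 8 KO libraries (4 glands and 4 tumors) ribosomal RNA (rRNA) took more than 1% of the reads, up to 18.8%, whereas no WT library was above 0.447%. The median share of mitochondrial reads was 5.62% in KO glands and 6.59% in KO tumors, against 1.46% and 1.77% in WT. In the other 7 KO libraries rRNA took 0.00331% to 0.952%. Comparisons of WT and KO are therefore given also with the rRNA share as a covariate and, in tumors, without the 8 libraries. Of 10 basal markers (Krt5, Krt14, Acta2 and others), all 10 fell in tumors of both genotypes. Their summed level was 5311 to 20766 CPM in glands (medians 9801 in WT and 10692 in KO) and 1006 to 5420 CPM in tumors (2547 and 2513). Of 10 fibroblast markers 6 fell in WT and 1 (Postn) in KO (441 to 4344 CPM summed in glands, 82.6 to 1099 CPM in tumors). Postn carried most of these sums, with means of 2176 CPM in WT glands, 2166.5 CPM in KO glands, 269 CPM in WT tumors and 370 CPM in KO tumors, whereas the means of the other 9 in KO were 0.0556 to 13.9 CPM in glands and 0.146 to 12.2 CPM in tumors. Of 10 endothelial markers 6 fell in WT and 1 in KO (3.55 to 39.6 CPM and 2.87 to 22.1 CPM). Of 10 macrophage markers 1 rose and 4 fell in WT and 2 rose in KO, and their sum was higher in tumors (62.9 to 173 CPM in glands, 151 to 418 CPM in tumors), mostly through Cd14, whose mean was 85.6 and 90.2 CPM in WT and KO glands and 223 and 243 CPM in tumors. Of 10 lymphocyte markers 3 fell in WT and 2 in KO (2.56 to 34.4 CPM in glands, 0.321 to 3.97 CPM in tumors), among them Trbc2, with means of 6.41 and 6.299 CPM in glands and 0.643 and 0.91 CPM in tumors, while Cd3e and Cd3d were at 0 in some libraries of each group. Of 10 adipocyte markers 1 rose and 2 fell in WT and 1 rose in KO, and their sum of 12.4 to 40.1 CPM came mostly from Lipe, while Adipoq was at 0 in some libraries of each group. Of 10 luminal markers 1 rose and 3 fell in WT and 3 rose and 2 fell in KO, and they summed to between 4955 and 12848 CPM in every library.

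The first question was whether the members differed between tumor and gland of the same genotype and age. Genes were called when the fold change was over 1.5 and the adjusted p was under 0.1, in edgeR's quasi-likelihood test over all 36527 tested genes. In each of the 6 comparisons all members called were higher in tumors and 0 were called lower. In PTHrP WT mice, 1 of 10 members (Bcl2) was called at week 6, where 2.32% of all genes tested were called higher. At week 8, 3 members were called (Bcl2, Bcl2l1 and Bbc3) against 3.35% of all genes, and at week 10 only Bcl2 was called against 2.46%. In PTHrP KO mice, 1 member (Bcl2) was called at week 8 against 1.11% of all genes. At week 10, 3 members were called (Bcl2, Bcl2l1 and Bbc3) against 2.57%, and at week 12, 2 members (Bcl2 and Bbc3) against 3.19%. Bcl2 was thus called in 6 of 6 comparisons, Bbc3 in 3, Bcl2l1 in 2 and the other 7 members in 0. Since these are bulk samples, fewer cells of a type and less RNA per cell cannot be told apart, and the part of the marker differences above, basal, stromal, endothelial and immune, in these results was not tested.

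**Figure D1:**
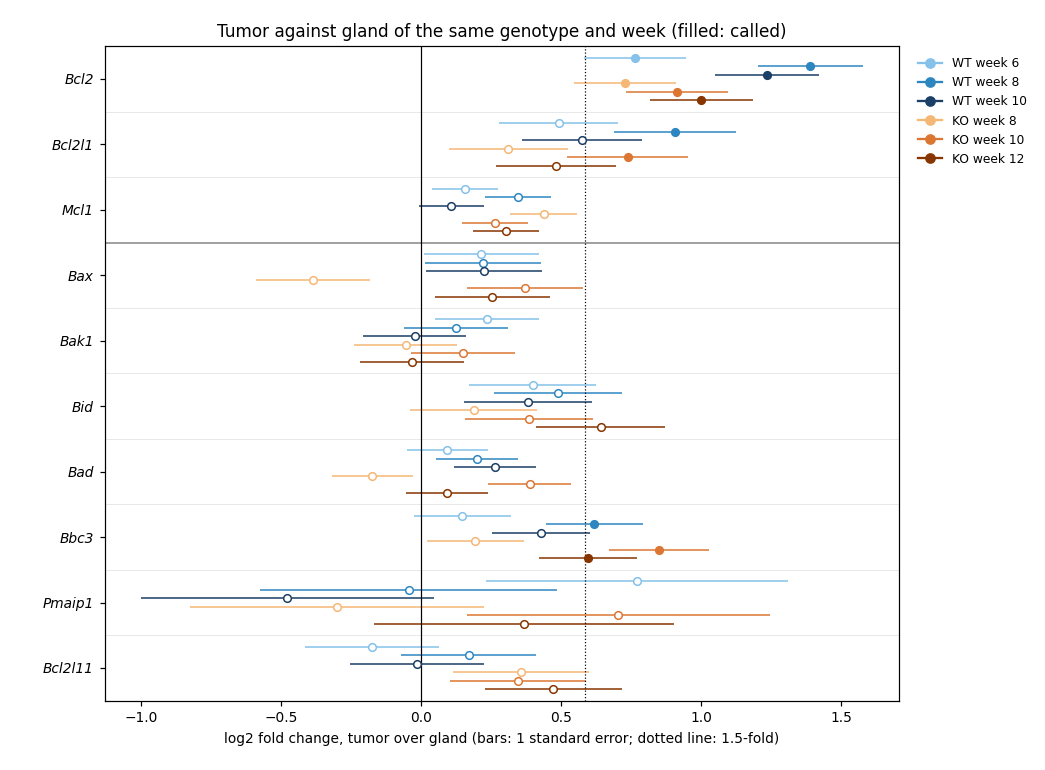
Log2 fold change of tumor over gland (x axis) for the 10 members (y axis, pro-survival genes above the grey line) in 6 comparisons, with bars of 1 standard error and filled points where the gene was called. Bcl2 is filled in all 6, whereas Mcl1 and 6 of the 7 pro-death genes are open throughout.

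Averaged over the 3 ages of each genotype, 2 members were called in WT (Bcl2 and Bcl2l1), where 6.21% of all genes were called higher. In KO, 1 member was called (Bcl2), where 5.16% of all genes were. The median log2 fold change of the 3 pro-survival members was 0.66 in WT and 0.51 in KO. That of the 7 pro-death members was 0.19 and 0.26, and that of all genes tested was 0.03 and 0.09. Several members changed by less than 1.5-fold with a small error. At an adjusted p under 0.1 with no fold threshold, a criterion chosen after seeing the data, 5 members were higher in WT (10.9% of all genes) and 6 in KO (9.46% of all genes). These were Bcl2, Bcl2l1, Mcl1, Bid and Bbc3 in both genotypes and Bcl2l11 in KO, and none was lower.

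Among the pro-survival genes, Bcl2 (chr1:106538178-106714274, minus strand) was the member that separated the tissues. PTHrP WT glands measured 28.8 and 20.3 CPM (read counts scaled to library size) at week 6, 26.0 and 17.8 at week 8, 25.5 and 20.004 at week 10, and 26.9 and 29.9 at week 12. PTHrP WT tumors measured 44.4, 39.5 and 41.3 CPM at week 6, 60.0, 62.4 and 49.8 at week 8, 52.9, 62.8 and 45.3 at week 10, and 52.2 in the single tumor of week 12. Every WT tumor lay above every WT gland. PTHrP KO glands measured 32.4 and 24.7 CPM at week 8, 23.1 and 30.1 at week 10, and 25.6 and 23.2 at week 12. PTHrP KO tumors measured 45.4, 48.8 and 48.0 CPM at week 8, 50.2, 48.0 and 52.3 at week 10, and 48.0, 44.5 and 54.4 at week 12. All 19 tumors (39.5 to 62.8 CPM) were above all 14 glands (17.8 to 32.4 CPM) for Bcl2, which was the case for 1 of 10 members and for 0.534% of all genes tested. The log2 fold change in WT mice was 0.77 ± 0.18 (SE, adjusted p = 0.015) at week 6, 1.39 ± 0.19 (adjusted p = 3.52e-05) at week 8 and 1.24 ± 0.19 (adjusted p = 0.000139) at week 10. In KO mice it was 0.73 ± 0.18 (adjusted p = 0.037) at week 8, 0.91 ± 0.18 (adjusted p = 0.00359) at week 10 and 1.00 ± 0.18 (adjusted p = 0.00192) at week 12. Averaged over ages, Bcl2 rose 2.19-fold in WT tumors (adjusted p = 2.10e-08) and 1.84-fold in KO tumors (adjusted p = 1.46e-06).

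The averaged calls of Bcl2 held under every alternative setting that could be computed and with any 1 library left out, with log2 fold changes of 1.05 to 1.23 in WT and 0.82 to 0.95 in KO, whereas single weeks rested on few glands. The averaged KO effect could not be computed without the 8 libraries over 1% rRNA, since no gland of week 10 is left. At week 6 in WT the call was lost without gland replicate 2 (log2 fold change 0.54, adjusted p = 0.42). At week 8 in KO it was lost without gland replicate 1 (0.94, adjusted p = 0.159), gland replicate 2 (0.55, adjusted p = 0.448), tumor replicate 2 (0.71, adjusted p = 0.114) or tumor replicate 3 (0.72, adjusted p = 0.111). Without the 8 libraries over 1% rRNA, which leaves 1 tumor and 1 gland there, it was 0.53 (adjusted p = 0.881). At week 10 in KO it was lost without gland replicate 1 (0.74, adjusted p = 0.101), and at week 12 in KO with only the groups compared (0.98, adjusted p = 0.147). The rRNA-rich KO libraries did not stand apart for Bcl2, with 23.1 to 30.1 CPM in 4 glands against 25.6 and 32.4 CPM in the other 2, and 48.0 to 52.3 CPM in 4 tumors against 44.5 to 54.4 CPM in the other 5. An antisense gene, D630008O14Rik, shares exon bases with Bcl2 and was at or below 0.0271 CPM in every library.

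**Figure D2:**
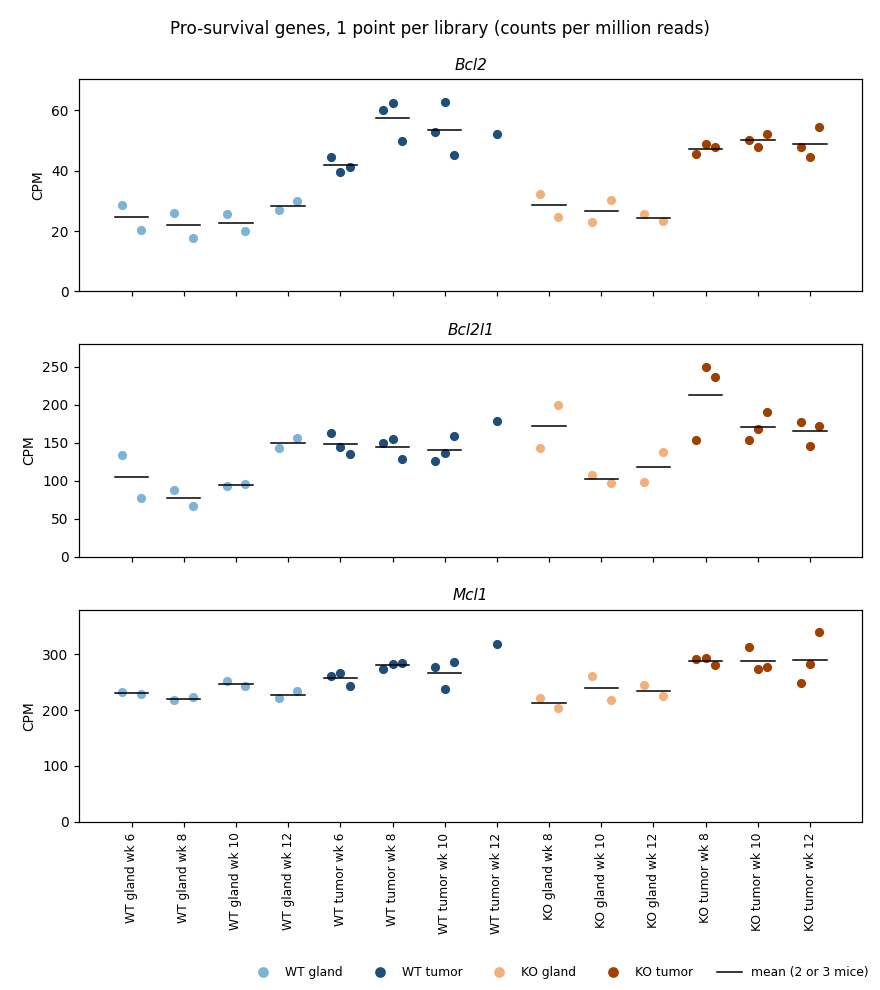
CPM (y axis, from 0) of Bcl2, Bcl2l1 and Mcl1 in each of 33 libraries by genotype, tissue and week (x axis), with a black line at the mean of 2 or 3 mice. Tumors and glands do not overlap for Bcl2 (39.5 to 62.8 against 17.8 to 32.4 CPM) and overlap for Bcl2l1 and Mcl1.

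Bcl2l1 (chr2:152780668-152831728, minus strand), which encodes BCL-XL, was higher in tumors at a smaller scale and with more spread between mice. In WT glands it was 134 and 76.7 CPM at week 6, 88.2 and 66.1 at week 8, 92.7 and 95.5 at week 10, and 143 and 157 at week 12. In WT tumors it was 163, 145 and 136 CPM at week 6, 150, 155 and 129 at week 8, 126, 136 and 159 at week 10, and 179 at week 12. Both WT glands of week 12 and the gland with 134 CPM at week 6 were thus within the range of the WT tumors, and the other 5 WT glands were below it. In KO glands it was 144 and 200 CPM at week 8, 108 and 97.0 at week 10, and 98.5 and 138 at week 12. In KO tumors it was 153, 250 and 237 CPM at week 8, 154, 168 and 191 at week 10, and 177, 146 and 172 at week 12. The 3 highest levels of all libraries, in KO tumor replicates 2 and 3 and KO gland replicate 2 of week 8, belonged to libraries with 12.0%, 3.62% and 15.7% rRNA. In KO tumors the 4 libraries over 1% rRNA had a median of 214 CPM and the other 5 a median of 154 CPM, whereas in KO glands the medians were 123 CPM in 4 libraries and 121 CPM in the other 2. Bcl2l1 rose in WT at week 8 (log2 fold change 0.91 ± 0.22, adjusted p = 0.0078) and in KO at week 10 (0.74 ± 0.22, adjusted p = 0.0493). In the other 4 comparisons it ranged from 0.31 to 0.58 and was not called.

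The averaged fold change of Bcl2l1 was 1.58 in WT (adjusted p = 0.000307) and 1.42 in KO (adjusted p = 0.00478), the latter below the fold threshold. In WT, the averaged value fell just under 1.5-fold with the rRNA share as a covariate (log2 fold change 0.58) and without gland replicate 2 of week 6 (0.54). At week 8 in WT the call was lost without gland replicate 2 (0.72, adjusted p = 0.181). At week 10 in KO it was lost without gland replicate 1, gland replicate 2, tumor replicate 2 (adjusted p = 0.103) or tumor replicate 3 (adjusted p = 0.2). It was kept in 9 of 13 alternatives, and the log2 fold change was 0.65 to 0.87 over all of them.

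Mcl1 (chr3:95658788-95663176, plus strand), a short-lived guard of BAK, had the highest level of the members per exon length. Glands ranged from 204 to 261 CPM (median 227) and tumors from 237 to 339 CPM (median 280). The ranges overlapped between 237 and 261 CPM. Within a condition the highest mouse exceeded the lowest by a median ratio of 1.08. The averaged log2 fold change was 0.20 ± 0.07 in WT (adjusted p = 0.0353) and 0.34 ± 0.07 in KO (adjusted p = 0.000908), so the error excluded 0 while the fold, 1.15 and 1.26, stayed below the threshold in both. The 95% intervals ran from 0.07 to 0.34 and from 0.20 to 0.47 on the log2 scale, both below the threshold of 0.58.

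Of the pro-death members, the pore formers Bax and Bak1 were called in none of the comparisons. Bax (chr7:45461697-45466898, minus strand) ranged from 39.1 to 88.9 CPM in glands and from 39.5 to 86.2 CPM in tumors, with the same span in both tissues. Its levels differed more by age and mouse than by tissue, being 72.9 and 78.7 CPM in WT glands of week 12 and 77.8 and 88.9 CPM in KO glands of week 8, against 39.1 to 62.2 CPM in the other 10 glands. Bak1 (chr17:27019810-27029009, minus strand) ranged from 63.3 to 101 CPM in glands and from 64.7 to 98.7 CPM in tumors. The averaged log2 fold change of Bax was 0.22 ± 0.12 in WT and 0.08 ± 0.12 in KO, and its 95% intervals (-0.01 to 0.45 and -0.15 to 0.31) lay below 1.5-fold. That of Bak1 was 0.11 ± 0.11 and 0.02 ± 0.11, with intervals of -0.10 to 0.32 and -0.19 to 0.23.

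Bbc3 (chr7:16308393-16318205, plus strand), which encodes the p53-inducible activator PUMA, was the pro-death member with the most calls. WT glands measured 13.1 and 10.6 CPM at week 6, 8.22 and 9.52 at week 8, 8.49 and 10.5 at week 10, and 12.0 and 14.4 at week 12. WT tumors measured 14.9, 10.5 and 13.8 CPM at week 6, 12.9, 13.7 and 14.3 at week 8, 12.7, 12.6 and 12.9 at week 10, and 15.2 at week 12. At weeks 8 and 10 the WT tumors lay above their glands, and at week 6 the groups overlapped. KO glands measured 12.1 and 11.2 CPM at week 8, 6.85 and 7.11 at week 10, and 9.80 and 6.94 at week 12. KO tumors measured 12.1, 13.6 and 14.3 CPM at week 8, 12.1, 13.6 and 12.1 at week 10, and 12.5, 11.6 and 13.99 at week 12. Tumors spanned 10.5 to 15.2 CPM over 19 mice, whereas glands spanned 6.85 to 14.4 CPM, and the 3 comparisons called were those with the lowest gland means. The log2 fold change was 0.62 ± 0.17 in WT at week 8 (adjusted p = 0.0264), 0.85 ± 0.18 in KO at week 10 (adjusted p = 0.00515) and 0.60 ± 0.18 in KO at week 12 (adjusted p = 0.0477). Averaged over ages it was 0.40 ± 0.10 in WT (adjusted p = 0.00513) and 0.55 ± 0.10 in KO (adjusted p = 0.000335), below 1.5-fold in both.

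The KO call of Bbc3 at week 10 held under every alternative that could be computed (log2 fold changes of 0.79 to 0.88), whereas the calls of WT week 8 and KO week 12 lay close to the fold threshold. The WT call of week 8 was lost without tumor replicate 3 (log2 fold change 0.58) or gland replicate 1 (0.52, adjusted p = 0.246), with DESeq2 (0.58) and without the filter on low counts (0.61, adjusted p = 0.119). The KO call of week 12 was kept in 6 of 14 alternatives. It was lost with DESeq2 (0.55), with DESeq2's size factors (0.56), with the replicate block (0.57), without the filter on low counts (0.61, adjusted p = 0.156), with only the groups compared (0.57, adjusted p = 0.384) and without gland replicate 2 (0.42, adjusted p = 0.425) or tumor replicate 3 (0.52, adjusted p = 0.182). Without the 8 libraries over 1% rRNA the value of week 12 was 0.40 (adjusted p = 0.579). In KO glands the 4 rRNA-rich libraries had 6.85 to 11.2 CPM and the other 2 had 9.80 and 12.1 CPM. The call of week 10, whose 2 glands are both rRNA-rich, could not be computed without them.

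**Figure D3:**
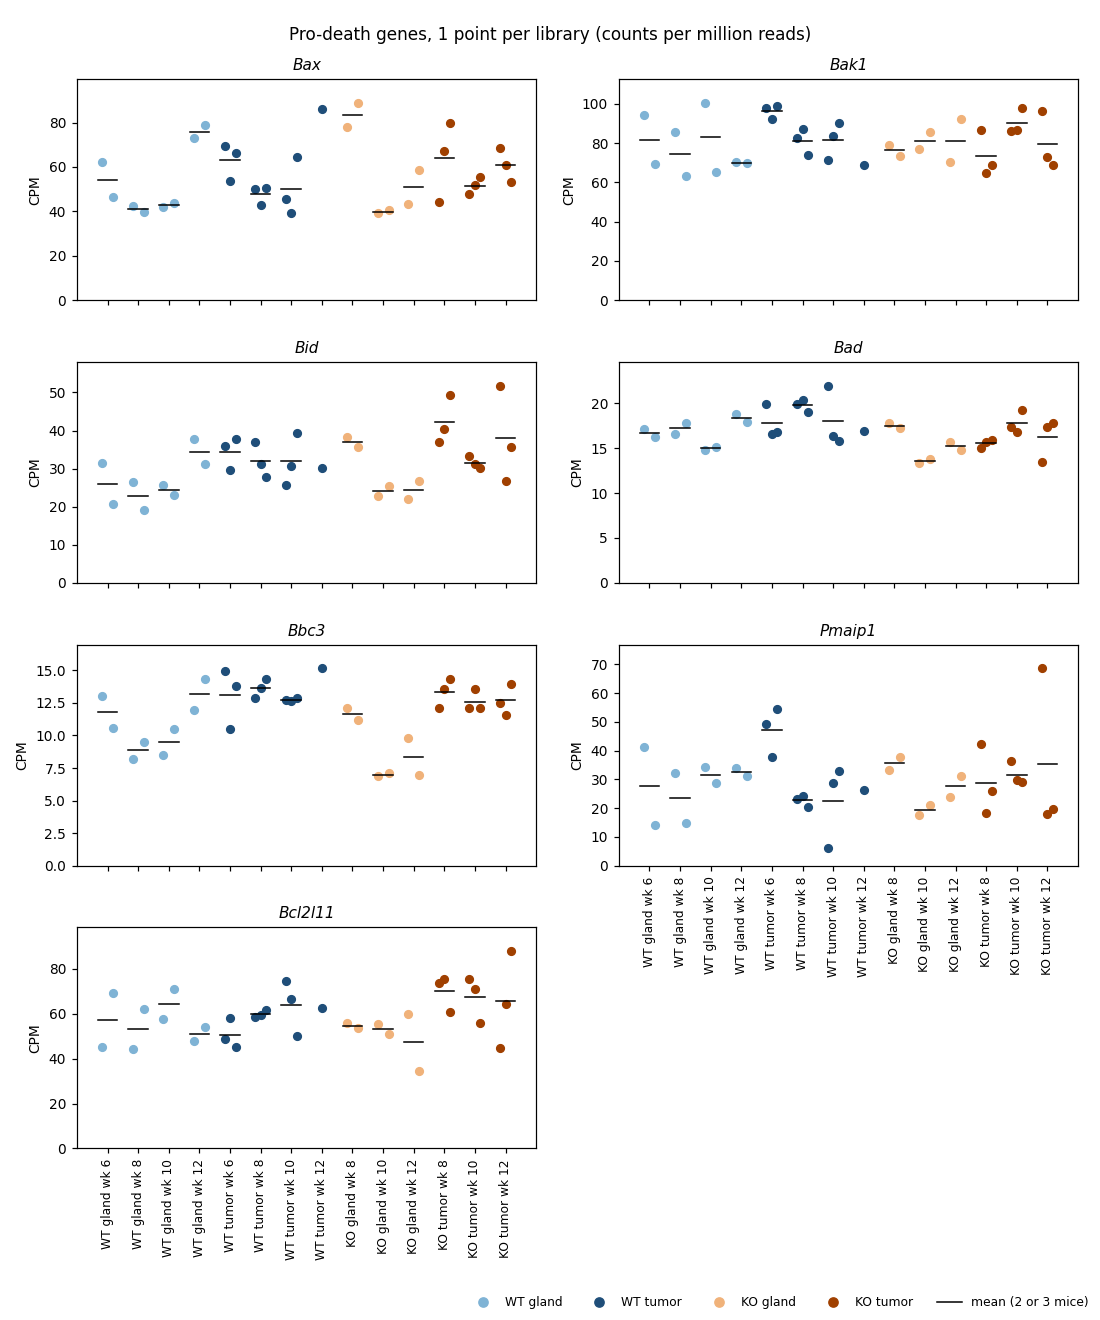
CPM (y axis, from 0) of the 7 pro-death genes in each of 33 libraries by genotype, tissue and week (x axis), with a black line at the mean of 2 or 3 mice. Tumors and glands overlap in all 7 genes, and Pmaip1 spreads widely between mice of 1 condition, from 6.05 to 33.01 CPM in WT tumors of week 10 and from 17.99 to 68.6 CPM in KO tumors of week 12.

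The other BH3-only members were called in none of the 6 comparisons. Bid (chr6:120891930-120916853, minus strand), which caspase-8 cleaves to link death receptors to mitochondria, had a median of 26.1 CPM in glands (19.1 to 38.2) and 33.4 CPM in tumors (25.6 to 51.8). Its averaged log2 fold change was 0.42 ± 0.13 in WT (adjusted p = 0.0238) and 0.41 ± 0.13 in KO (adjusted p = 0.039), below the fold threshold. Bid shares exon bases with Bcl2l13 on the opposite strand (median 57.2 CPM in glands and 72.2 CPM in tumors), and since it is not given whether reads were counted by strand, reads of the shared bases cannot be assigned with certainty. Bcl2l11 (chr2:128126038-128162547, plus strand), the gene of BIM, had a median of 54.8 CPM in glands (34.7 to 71.3) and 61.7 CPM in tumors (44.7 to 87.9). Its averaged log2 fold change was -0.01 ± 0.14 in WT and 0.39 ± 0.14 in KO (adjusted p = 0.0653). Bad (chr19:6941861-6951899, plus strand), which growth factor signaling silences by phosphorylation, ranged narrowly, from 13.4 to 18.8 CPM in glands and from 13.5 to 22.0 CPM in tumors. Its averaged log2 fold change was 0.19 ± 0.08 in WT and 0.10 ± 0.08 in KO, and it shares exon bases with Gpr137 on the opposite strand (median 15.5 CPM in glands and 13.3 CPM in tumors), so that the same limit on assigning reads applies.

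Pmaip1 (chromosome 18), the gene of NOXA, varied most between mice of the same condition, by the ratio of the highest to the lowest mouse (up to 5.46). In WT tumors it was 49.2, 37.9 and 54.5 CPM at week 6, 23.3, 24.2 and 20.5 at week 8, 6.05, 28.6 and 33.01 at week 10, and 26.4 at week 12. In KO tumors it was 42.2, 18.4 and 26.0 CPM at week 8, 36.3, 29.7 and 29.0 at week 10, and 68.6, 17.99 and 19.9 at week 12. Single tumors thus set the extremes, the lowest in WT replicate 1 of week 10 and the highest in KO replicate 1 of week 12. Glands ranged from 14.2 to 41.1 CPM and lay within the range of the tumors. The standard error of its log2 fold change was 0.52 to 0.54 in the 6 comparisons, so a 1.5-fold difference of Pmaip1 was not detectable at this spread.

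Levels of different genes were compared per exon length, as CPM divided by the kilobases of exon (RPKM), with lengths from Gencode M21. In the 14 glands the order of the medians was Mcl1 (66.3 RPKM), Bak1 (31.3), Bax (28.5), Bcl2l1 (22.5), Pmaip1 (11.4), Bid (7.36), Bcl2l11 (6.83), Bad (6.42), Bbc3 (4.77) and Bcl2 (2.80). Bcl2 was below Bbc3, its neighbour in the order, in 14 of 14 glands. Bak1 and Bax could not be ordered (Bak1 was higher in 7 of 14 glands), nor could Bcl2l11 and Bad (7 of 14). In the 19 tumors Mcl1 stayed first (82.0 RPKM) and Bcl2 stayed last (5.33 RPKM), and the medians of the genes between them kept the same order. There, Bak1 (35.8), Bax (33.9) and Bcl2l1 (33.8) could not be ordered (Bak1 was above Bax, and Bax above Bcl2l1, in 9 of 19 tumors each), and Bcl2 was below Bbc3 in 15 of 19. Mcl1 was above Bak1, the next gene, in every library.

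**Figure D4:**
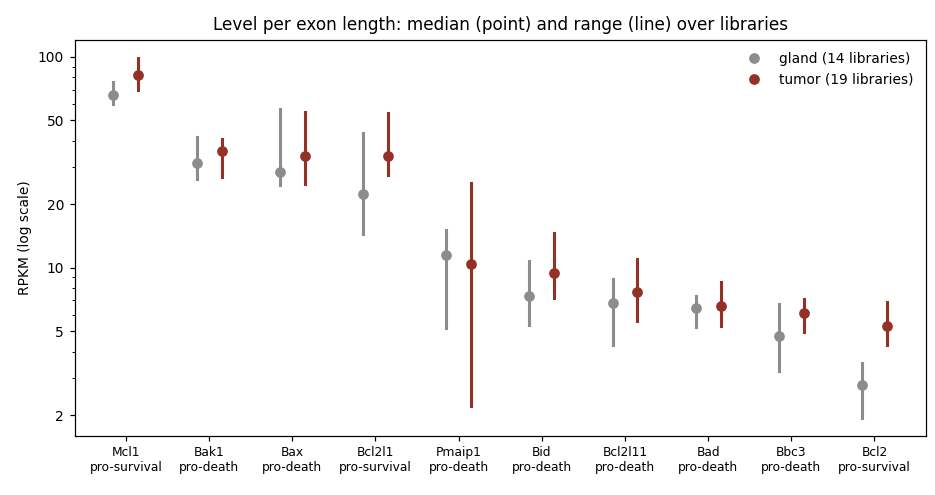
RPKM (y axis, log scale) of the 10 members (x axis, with their role), with a point at the median and a line from the lowest to the highest of 14 glands (grey) and 19 tumors (red). Mcl1 is the highest in both tissues and Bcl2 the lowest, at 2.80 RPKM in glands and 5.33 RPKM in tumors.

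Summed over roles, the 3 pro-survival genes reached 95.7 ± 7.65 RPKM (SD, n = 14) in glands and 123 ± 11.4 RPKM (n = 19) in tumors. Mcl1 and Bcl2l1 make up most of this sum, to which Bcl2 adds the least. The 7 pro-death genes reached 104 ± 16.3 RPKM in glands and 113 ± 12.8 RPKM in tumors. The ratio of the sums was 0.936 ± 0.112 in glands (0.797 to 1.205) and 1.10 ± 0.149 in tumors (0.795 to 1.37). The ranges of the ratio overlapped, and the ratio was not tested.

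The second question was whether PTHrP status altered the members. In edgeR's quasi-likelihood test 0 of 10 members were called between WT and KO tumors of weeks 8 and 10 (0.512% of all genes were called either way), and 1 member had an unadjusted p under 0.05 (10.9% of all genes). In the comparisons of matched stages 0 members were called in hyperplasia (1.53% of all genes), adenoma (0.00821%) and carcinoma (0.0192%), with 3, 0 and 0 members at an unadjusted p under 0.05 (14.2%, 4.48% and 6.53% of all genes). Matched stages differ by 2 weeks of age, which cannot be told apart from genotype there. Between WT and KO glands of weeks 8, 10 and 12, 0 members were called (0.906% of all genes) and 2 had an unadjusted p under 0.05 (12.4% of all genes). DESeq2 also called 0 members in each of these, and 442, 1111, 20, 79 and 577 of 36527 genes in the same order. With the rRNA share as a covariate edgeR called 0 members in all 5, and 116, 52, 2, 6 and 52 genes. Without the 8 libraries over 1% rRNA it called 0 members in carcinoma, where it called 12 of 35300 genes. The other comparisons of tumors then rest on 1 KO tumor per week. So few genes were called under these last settings that 0 members says little. For all 10 members the ranges of WT and KO libraries, pooled over ages, overlapped in tumors and in glands. The share of all genes that overlap in this way was not counted, so this shows nothing particular to the members.

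Bcl2l1 was the member with the smallest p between genotypes. It was lower in WT than in KO tumors of weeks 8 and 10 by a log2 difference of -0.42 ± 0.13 (unadjusted p = 0.00418, adjusted p = 0.209), in hyperplasia by -0.53 ± 0.19 (adjusted p = 0.183) and in glands by -0.31 ± 0.13 (adjusted p = 0.338). None of these passed. In hyperplasia Bcl2l1 was called in 1 of 15 alternatives (adjusted p from 0.0273 to 1), which was without KO tumor replicate 1 of week 8 (-0.72, adjusted p = 0.0273) and leaves the 2 rRNA-rich tumors of that group. With the rRNA share as a covariate the log2 differences of Bcl2l1 were -0.32, -0.38 and -0.11. Without the 8 libraries over 1% rRNA they were -0.09 in tumors of weeks 8 and 10 and -0.04 in hyperplasia, and no such value could be computed for glands. These 2 values rest on 1 KO tumor per week, replicate 1 of week 8 (153 CPM) and replicate 1 of week 10 (154 CPM). Each was the lowest of its group, so rRNA share and differences between mice cannot be told apart. For Bcl2, WT and KO tumors differed by 0.19 ± 0.11 (adjusted p = 0.562). A p that misses the threshold does not show that the genotypes were alike.

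The tumor effect itself was also compared between genotypes. The difference of the effects (WT minus KO) over weeks 8 and 10 called 0 of 10 members and 0.00548% of all genes, with 1 member at an unadjusted p under 0.05 (5.58% of all genes). Over matched stages it called 0 of 10 members and 0.14% of all genes, with 0 members at an unadjusted p under 0.05 (10.4% of all genes). DESeq2 also called 0 members in both, and 52 and 356 of 36527 genes. For Bcl2 the effect was larger in WT by 0.49 ± 0.18 on the log2 scale over weeks 8 and 10 (unadjusted p = 0.0109, adjusted p = 0.829) and by 0.25 ± 0.15 over matched stages (adjusted p = 0.611), neither of which passed.

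Within the tumors, the members were compared between the first and the last stage. In WT, week 10 against week 6 called 0 of 10 members and 0.011% of all genes, with 2 members (Bcl2 and Pmaip1) at an unadjusted p under 0.05 (8.55% of all genes). Bcl2 was higher at week 10 by a log2 difference of 0.36 ± 0.16 (adjusted p = 0.556), and Pmaip1 was lower by -1.07 ± 0.48 (adjusted p = 0.558). In KO, week 12 against week 8 called 0 members and 0% of all genes, with 0 members at an unadjusted p under 0.05 (7.88% of all genes). DESeq2 also called 0 members in both, and 73 and 61 of 36527 genes.

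The rest of the pathway was described by lists of known genes, in the effect averaged over ages, where 6.21% of all genes tested were called higher and 9.53% lower in WT, and 5.16% higher and 5.44% lower in KO. Of 15 other BCL2 family genes, 0 rose and 1 fell in WT, whereas 3 rose and 1 fell in KO. Bok, a BAX relative, fell in both, with log2 fold changes of -1.89 ± 0.23 in WT (adjusted p = 6.39e-07) and -1.65 ± 0.23 in KO (adjusted p = 8.05e-06). Bmf, a BH3-only sensor of lost attachment, rose in KO (1.32 ± 0.29, adjusted p = 0.00194) and measured 0.35 ± 0.28 in WT, where it was not called. Bik, another BH3-only gene, rose in KO (0.86 ± 0.19, adjusted p = 0.00227) and measured 0.34 ± 0.19 in WT. Bcl2l14 was the third gene called in KO. In the difference of the tumor effects between genotypes (WT minus KO) over matched stages, edgeR and DESeq2 called 0 of these 15 genes. In edgeR 4 of them had an unadjusted p under 0.05 (10.4% of all genes). It was -0.97 ± 0.39 for Bmf (adjusted p = 0.372), -0.52 ± 0.26 for Bik (adjusted p = 0.515) and -1.26 ± 0.42 for Bcl2l14 (adjusted p = 0.267). Over weeks 8 and 10 both tools called 0 of the 15, with 0 at an unadjusted p under 0.05 in edgeR (5.58% of all genes). The median of the list was 0.34 in WT and 0.46 in KO, beside 0.03 and 0.09 for all genes.

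Of 18 genes of caspases and the apoptosome, 0 rose and 0 fell in KO tumors by edgeR's quasi-likelihood test, and DESeq2 called 0. In edgeR 10 of the 18 had an unadjusted p under 0.05, as had 8516 of all 36527 genes. The medians of the list were 0.11 in WT and 0.07 in KO, beside 0.03 and 0.09 for all genes. Of 11 death receptor genes, 1 rose and 2 fell in WT, and 1 rose and 1 fell in KO, with medians of 0.04 and 0.06. The death receptor Fas rose in both (1.47 ± 0.17, adjusted p = 6.03e-07, and 1.05 ± 0.17, adjusted p = 8.05e-05). The ligand Tnfsf10 (TRAIL) fell in both (-1.27 ± 0.25, adjusted p = 0.000532, and -1.08 ± 0.26, adjusted p = 0.00379). The ligand Fasl fell in WT (-2.23 ± 0.78, adjusted p = 0.0477) and measured 0.003 ± 0.19 in KO, where it was not called.

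Of 15 genes of p53 and its targets, 1 rose and 3 fell in WT tumors, while in KO 0 rose and 2 fell, with medians of -0.02 and -0.04. In the difference of the tumor effects over matched stages edgeR called 0 of them (51 of 36527 genes) and DESeq2 called 1 (356 of 36527). In edgeR 2 of the 15 had an unadjusted p under 0.05 (10.4% of all genes). Over weeks 8 and 10 both tools called 0, with 2 at that p in edgeR (5.58% of all genes). Phlda3, which restrains AKT, fell in both (-0.90 ± 0.13, adjusted p = 6.45e-06, and -0.87 ± 0.13, adjusted p = 1.80e-05), as did Perp, a desmosome gene (-0.69 ± 0.18, adjusted p = 0.00772, and -0.63 ± 0.18, adjusted p = 0.0178). Eda2r, a receptor of the TNF family, rose in WT (0.74 ± 0.29, adjusted p = 0.0855) and measured -0.004 ± 0.29 in KO, where it was not called. Of 21 other upstream regulators, 1 rose and 2 fell in each genotype, with medians of -0.11 and -0.01. The p53 relative Trp73 fell in both (-2.26 ± 0.44, adjusted p = 0.000428, and -1.97 ± 0.44, adjusted p = 0.00217), and so did Trp63 (-0.997 ± 0.30, adjusted p = 0.0189, and -1.03 ± 0.30, adjusted p = 0.0187), which is also one of the basal markers that fell. Foxo1, a forkhead factor held in the cytoplasm by AKT, rose in KO (0.79 ± 0.15, adjusted p = 0.000623) and measured 0.42 ± 0.15 in WT.

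Genes whose pattern was most like that of a member called in at least 3 of the 6 comparisons were ranked by the correlation of mean log2 CPM over 14 conditions, among 11880 expressed genes. The highest for Bcl2 were Pde7a (Pearson r = 0.985) and Scube1 (0.984). For Bbc3 they were Ndfip2 (0.955) and H2aj (0.945). The conditions share the contrast of tumor and gland, so these values are a description and carry no test.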

How the data were processed

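Total RNA was cleared of rRNA and turned into stranded paired-end libraries by the authors, who aligned reads with HISAT to GRCm38 and Gencode M16, removed duplicates with Picard 1.128 and counted with HTSeq. The strand setting of HTSeq is not given in the sources used here. The deposited raw counts hold 55487 genes, besides 111 rows that name no gene (0.0778% of reads), which were left out. A normalized signal that the authors deposited, in which counts were scaled by library, was an alternative for levels. Samples were grouped by genotype, tissue and week from the labels. edgeR 4.0.16 (TMM, estimateDisp, glmQLFit, glmQLFTest, 14 condition coefficients, all 33 libraries) tested 36527 genes with at least 10 reads in all. Calls needed over 1.5-fold and an adjusted p (Benjamini-Hochberg, over all genes of a comparison) under 0.1, in 17 comparisons. The WT tumor of week 12, without replicate, entered no comparison. SE was derived from the log2 fold change and the F statistic, and intervals are 95%. CPM used TMM library sizes. Each member had at least 141 reads in every library, so the spread between mice rather than counting limits the precision. The labels do not number litters or batches. Members and lists were chosen with earlier results of these data known. Genes named from a list were the up to 3 with the smallest adjusted p among those called in an averaged effect. Alternatives were DESeq2 1.42.0, its size factors, no filter, only the groups compared, no WT tumor of week 12, a replicate block, no rRNA and mitochondrial genes, the rRNA share as covariate, and each library left out. The scripts were tested on simulated data. No library duplicated another of its condition (25 pairs, lowest chi-square per degree of freedom 37.4). The calls of the caspase list in WT are not reported here.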

Additional observations from a re-analysis of the deposited data

Results flagged for a closer look

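The single PTHrP WT tumor of week 12 entered no comparison. In it 5 of 10 members lay above the highest of 8 WT glands, as did 17.6% of all genes tested. They were Bcl2 (52.2 CPM against 29.9), Bcl2l1 (178.5 against 157), Mcl1 (318.9 against 252), Bax (86.2 against 78.7) and Bbc3 (15.2 against 14.4). Of these, Bcl2 lay within the range of the 9 younger WT tumors, and Bcl2l1, Mcl1, Bax and Bbc3 lay above it. With 1 mouse these values have no replicate check.

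At week 8 tumors and glands separated in opposite directions in the genotypes for Bad, by small amounts. All 3 WT tumors lay above both WT glands (log2 fold change 0.20) and all 3 KO tumors lay below both KO glands (log2 fold change -0.17). Neither effect passed the test of its own comparison, and the difference at week 8 alone was not tested. All members were searched for such a pattern at weeks 8 and 10. Its share over all genes was not counted, so it is not read as a result about Bad. Over weeks 8 and 10 together the difference of the effects (WT minus KO) of Bad was 0.12 ± 0.15 on the log2 scale (unadjusted p = 0.4 in edgeR's quasi-likelihood test). Bad shares exon bases with Gpr137 on the opposite strand (median 15.5 CPM in glands and 13.3 CPM in tumors).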

How the results depend on the processing

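Of 122 values of members called in a comparison, under settings other than leaving out 1 library, 111 kept their call and 11 lost it, and of 100 values with 1 library left out 84 kept it and 16 lost it. No called value changed sign. Levels from the authors' normalized signal moved by less than 1 SD in 20 of 20 cases. Bcl2 kept its call in both averaged effects under all of them that gave a value, and the averaged KO effect had none without the rRNA-rich libraries. Leaving out 1 library reused the dispersion trend and gene filter of all libraries, and a lone gland was assumed to vary like the other groups. The share of all genes called was not counted with 1 library left out, so those numbers of members have no background beside them.

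The number of members called changed as follows, and beyond what the report states the cause was not tested. In WT at week 8 it was 2 with DESeq2 (1215 of 36527 genes called higher) and 2 without the filter on low counts (1263 of 49472). At week 10 in WT it was 2 without that filter (1091 of 49472). In the averaged WT effect it was 1 with the rRNA covariate (2241 of 36527) and 5 at adjusted p alone (3971 of 36527). In KO it was 4 at week 10 with only the groups compared (1232 of 21060 genes called higher). In KO at week 12 it was 3 with the rRNA covariate (1132 of 36527 genes called higher). It was 1 with DESeq2 (1194), with DESeq2's size factors (1044) and with the replicate block (1033). With only the groups compared it was 0, where edgeR called 0 of all genes and Bcl2 had a log2 fold change of 0.98 (adjusted p = 0.147). Without the 8 libraries over 1% rRNA, an alternative chosen after seeing the data, it was 0 in KO at week 8 (where 40 of 35300 genes were called) and 1 at week 12 (1462 of 35300), and KO at week 10 had no gland left. In the averaged KO effect it was 2 with the rRNA covariate (1806 of 36527 genes called higher) and 6 at adjusted p alone (3457 of 36527). The other BCL2 family genes called in WT numbered 3 without the filter (5582 of 49472 genes called either way) and 2 with DESeq2 (5345 of 36527). The caspase genes called in KO numbered 1 with the replicate block (3566 of 36527).

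With 1 library left out, members called numbered 0 to 2 in WT at week 6 (0 without gland replicate 2 and 2 without gland replicate 1), 2 to 3 in WT at week 8 (2 without either gland or tumor replicate 3), 0 to 1 in KO at week 8 (0 without either gland or tumor replicates 2 or 3), 1 to 3 in KO at week 10 (1 without gland replicate 1, and 2 without gland replicate 2, tumor replicate 2 or tumor replicate 3), 1 to 3 in KO at week 12 (3 without gland replicate 1, tumor replicate 1 or tumor replicate 2, and 1 without gland replicate 2 or tumor replicate 3), 1 to 2 in the averaged WT effect (1 without gland replicate 2 of week 6), 1 to 2 in the averaged KO effect (2 without gland replicate 2 of week 8 or either gland of week 12) and 0 to 1 between tumors in hyperplasia (1, Bcl2l1, without KO tumor replicate 1 of week 8). The other BCL2 family genes called in WT ranged from 1 to 4 (4 without gland replicate 1 of week 6 or of week 8, and 2 or 3 without either gland of week 10 or tumor replicates 1 or 3 of week 10), genes of p53 and its targets from 1 to 4 in WT (1 without gland replicate 1 of week 8, and 2 without gland replicate 1 of week 6, gland replicate 2 of week 8, either gland of week 10, tumor replicate 1 of week 6, replicate 3 of week 8 or replicate 3 of week 10) and 1 to 2 in KO (1 without gland replicate 1 of week 8, replicate 2 of week 10 or replicate 1 of week 12), and caspase genes in KO from 0 to 1 (1 without gland replicate 1 of week 8 or replicate 2 of week 10).

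Replicate numbers did not pair the mice. Of 171 pairs of libraries with the same number 65 had deviations correlated over 0.1, and 15 of 32 libraries correlated best with their own number. The replicate block left the number of members called the same in the other comparisons.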
